A study of Homo sapiens with 10 samples.

Results

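The genes described here are 33 genes of glucose and lactate transport, glycolysis, pyruvate entry into the mitochondria and the pentose phosphate pathway, taken by symbol from the 23284 genes of the expression table. All 33 were found. They are 4 transporters, 8 genes from hexokinase to aldolase, 8 from triose phosphate isomerase to lactate dehydrogenase, 3 PFKFB regulators, 4 genes of pyruvate entry and 6 of the pentose phosphate pathway. The expression values came from K562, a human cell line derived from a patient with chronic myelogenous leukemia and kept as an established line. Cells were exposed for 48 h to the solvent DMSO, to CBP30 at 2 µM or 5 µM, or to I-CBP112 at 2 µM or 5 µM, with 2 samples in each of the 5 conditions. CBP30 and I-CBP112 are small molecules that bind the bromodomains of CREBBP and EP300, related histone acetyltransferases whose bromodomains dock onto acetylated lysines.

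Glycolysis splits glucose into pyruvate, and cells that divide quickly often turn much of that pyruvate into lactate and export it. Hexokinases trap glucose in the cell as glucose 6-phosphate, from which carbon either continues down glycolysis or enters the pentose phosphate pathway, the source of ribose for nucleotides and of NADPH. Phosphofructokinase is the main control point of the pathway, and the PFKFB enzymes set the level of its activator, fructose 2,6-bisphosphate.

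With 5 µM CBP30, HK1, HK2, the phosphofructokinase isozyme PFKP, the regulators PFKFB3 and PFKFB4, the kinase PDK1 and the pentose phosphate enzyme RPIA were among 12 genes that fell, where 25.4% of all tested genes were lower. The isozyme PFKM rose, by 0.39 on the log2 scale, and PFKL (−0.22) and PFKFB2 (0.02) did not pass the test. HK1 dropped from 146 ± 1.49 FPKM (SD, n = 2) with DMSO to 74.1 ± 0.136, and PFKFB3 from 9.39 ± 0.0941 to 3.78 ± 0.0516. The highly expressed enzymes of the lower pathway, among them GAPDH, ENO1, PGK1 and LDHA, did not pass the test against DMSO in the fit of all 5 groups. Which genes passed depended on the setting used. ENO2, the neuronal isozyme of enolase, rose in all 4 treatments, from 3.15 ± 0.302 FPKM with DMSO to 11.3 ± 0.627 with 5 µM CBP30. FPKM correct read numbers for library size and transcript length and so allow levels to be compared between genes per length.

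Differences were tested with limma on log2(FPKM + 1) over the 12788 genes that averaged 0.5 FPKM or more, and a gene was called at a Benjamini-Hochberg adjusted p under 0.05 over all of them. Of the 33 genes, 32 passed this filter. PDK3, a pyruvate dehydrogenase kinase, did not, and ranged from 0.137 to 0.657 FPKM over the 10 samples. Fold changes on this scale understate the change of genes at a few FPKM or less. All comparisons with DMSO use the same 2 DMSO samples and are therefore not independent of each other.

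The libraries were similar in depth as far as FPKM show it, at 0.926 to 1.08 times their mean. This was estimated from 673 long genes found in few samples, whose values were assumed to stand for about 1 read. Replicate 1 of 2 µM CBP30 stood apart: its difference from replicate 2 followed transcript length (rho = −0.567 across genes, against −0.148 to 0.271 in the other conditions), and its FPKM summed to 689095 against 547504 to 620641 in the others. Counts and most changes against DMSO at 2 µM CBP30 are therefore given with and without it. The 12 markers of K562 and its erythroid features were at 1 FPKM or more in all samples. With 5 µM CBP30, 11 of them were lower and TAL1 was higher. Of 20 markers of T cells, B cells, monocytes, fibroblasts, endothelium and epithelium, CD3D and EPCAM reached 5 FPKM, the other 18 stayed at or below 3.31, and CD2, MS4A1 and CDH5 were listed at 0 throughout. Summed, these 20 markers ranged from 78.3 to 80.2 FPKM with DMSO and from 63.2 to 67.3 with 5 µM CBP30, and their part in the results was not tested. With 5 µM CBP30 the 3 tested T cell markers and COL1A1 were called higher and EPCAM lower. In bulk samples like these, a smaller number of cells of one kind and less RNA per cell cannot be told apart.

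With 5 µM CBP30, 12 of the 32 genes were lower and 3 higher than with DMSO. Over all tested genes, 25.4% were called lower and 21.2% higher. The median log2 change of the 32 was −0.17, beside −0.01 over all tested genes. Of the 8 genes from hexokinase to aldolase, HK1, HK2, GPI and PFKP fell and PFKM rose. Of the 8 from triose phosphate isomerase to lactate dehydrogenase, none fell by limma (1 lower at an unadjusted p under 0.05) and ENO2 rose. Under quantile normalization the counts became 12 lower and 8 higher, with highly expressed genes such as TPI1 and ENO1 among those added. Median centring left 12 and 3. Fitting only 5 µM CBP30 and DMSO gave 19 lower and 5 higher, so both counts depend on the setting used.

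With 2 µM CBP30, 10 genes were lower and 3 higher, beside 16.3% lower and 15.9% higher of all tested genes. The median of the 32 was −0.04, beside 0.01 over all tested genes. Without replicate 1, 12 genes were lower and 2 higher, and 12 of the 13 calls remained, SLC16A3 being lost. Without replicate 2, which leaves the sample that stood apart as the only one, 11 were lower and 11 higher. The call of PDHA1 was then lost.

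I-CBP112 at 5 µM called 3 genes lower (HK1, HK2 and PFKFB3) and 2 higher (PFKM and ENO2), beside 3.28% lower and 3.84% higher of all tested genes. Under quantile normalization 5 were lower and 2 higher, PFKFB2 and PFKFB4 being added. At 2 µM it called HK1 lower and ENO2 higher, 1 gene each way, beside 0.735% and 0.868% of all tested genes. Over the 4 comparisons with DMSO, 14 of the 32 genes were never called, 8 were called in 1, 5 in 2, 3 in 3 (HK2, PFKM and PFKFB3) and 2 in all 4 (HK1 and ENO2). Of all tested genes 43.6% were never called, 33.3% were called in 1 of these comparisons, 16.4% in 2, 5.1% in 3 and 1.5% in all 4, and the comparisons share the DMSO samples.

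**Figure D1:**
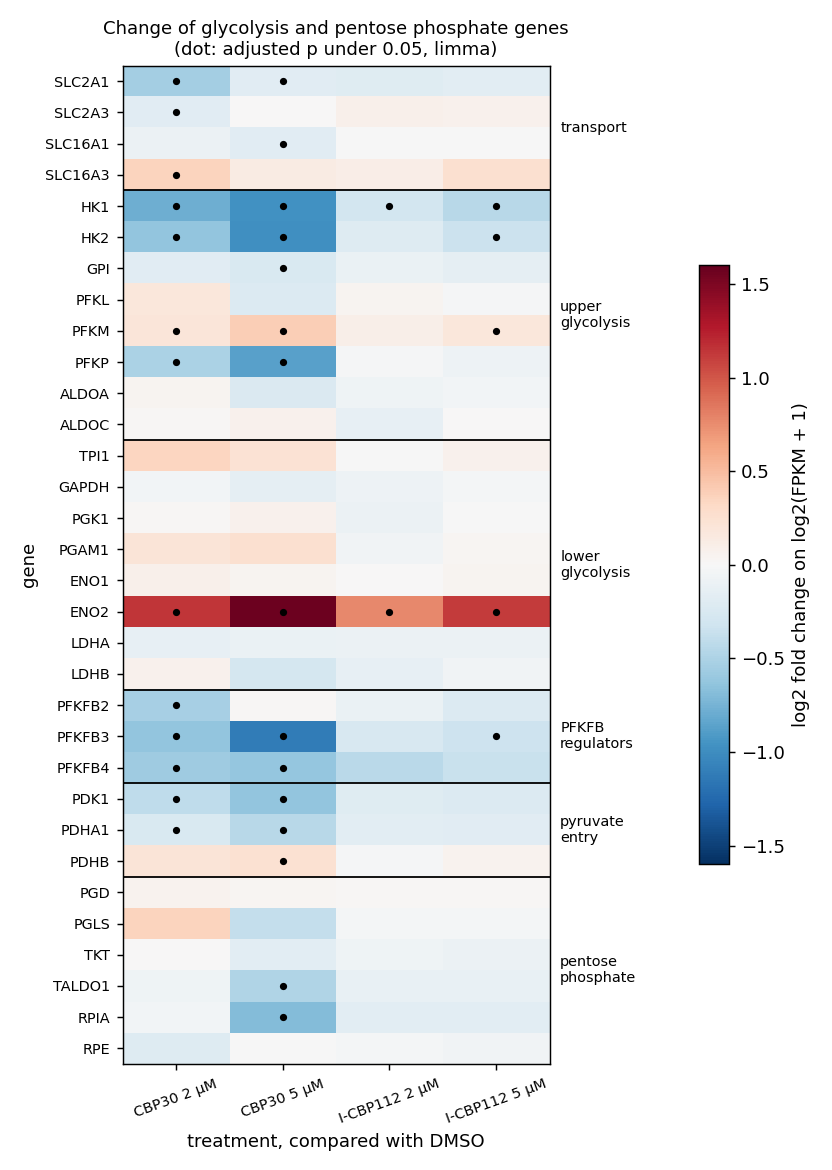
Log2 fold changes against DMSO on log2(FPKM + 1) of the 32 tested genes (rows, ordered by role) in the 4 treatments (columns), blue lower and red higher, with a dot where the adjusted p was under 0.05. The hexokinases, PFKP and PFKFB3 form the darkest blue cells with 5 µM CBP30, where PFKFB3 is at −1.12, and ENO2 is red in all 4 columns.

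Glucose enters K562 cells through facilitative transporters. SLC2A1, which encodes GLUT1, was at 42.9 and 42.2 FPKM with DMSO, 28.6 and 29.1 with 2 µM CBP30, 36.7 and 38.2 with 5 µM CBP30, and under I-CBP112 35.8 and 38.1 at 2 µM and 38.3 and 37.03 at 5 µM. Both samples of 2 µM CBP30 lay below all other samples, and both DMSO samples above all others. Its log2 change was −0.55 (SE 0.05, adjusted p = 4.68e-04, limma) with 2 µM CBP30 and −0.53 without replicate 1 of that group. With 5 µM CBP30 it was −0.18 (SE 0.05, adjusted p = 0.0223, limma), a call that held in 14 of 19 alternative settings and was lost under quantile normalization.

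The other 3 transporters were each called in 1 comparison with DMSO. SLC2A3, encoding GLUT3, was lower with 2 µM CBP30 (log2 −0.18, adjusted p = 0.0408, limma), a call that held in 8 of 19 alternative settings and was at −0.19 (adjusted p = 0.0463) without replicate 1 of that group. Its reads may be shared with the close copy SLC2A14, and how such reads were divided was not stated. SLC16A1, encoding the lactate carrier MCT1, fell by 0.18 on the log2 scale with 5 µM CBP30 (adjusted p = 0.0346, limma), a call that held in 10 of 19 alternative settings. SLC16A3, encoding the lactate exporter MCT4, lay between 0.276 and 0.877 FPKM in all samples, and its call as higher with 2 µM CBP30 (log2 0.36, adjusted p = 0.0433, limma) was lost without replicate 1.

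Both hexokinases fell with CBP30. HK1, the broadly expressed hexokinase, lies at chr10:71029740-71161640 (GRCh37, plus strand). It was at 145 and 147 FPKM with DMSO, 82.3 and 86.4 with 2 µM CBP30, 74.0 and 74.2 with 5 µM CBP30, and under I-CBP112 115 and 123 at 2 µM and 109 and 106 at 5 µM. No treated sample reached a DMSO sample, and the 5 groups did not overlap with each other. On the log2 scale it changed by −0.97 (SE 0.05, adjusted p = 1.91e-05, limma) with 5 µM CBP30 and −0.79 (SE 0.05, adjusted p = 1.32e-04, limma) with 2 µM, or −0.75 without replicate 1 of that group. It was −0.44 (SE 0.05, adjusted p = 4.35e-03, limma) with I-CBP112 at 5 µM. At 2 µM that compound gave −0.29 (adjusted p = 0.0467, limma), a call that held in 6 of 19 alternative settings.

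HK2, the inducible hexokinase that many tumours raise, lies at chr2:75061254-75120486 (GRCh37, plus strand). It was at 18.8 and 19.2 FPKM with DMSO, 10.9 and 13.1 with 2 µM CBP30, 9.12 and 9.22 with 5 µM CBP30, and under I-CBP112 16.5 and 16.1 at 2 µM and 15.05 and 14.4 at 5 µM. The groups again did not overlap and stood in the same order as for HK1. Its log2 change was −0.98 (SE 0.08, adjusted p = 1.03e-04, limma) with 5 µM CBP30, and −0.63 with 2 µM (adjusted p = 1.64e-03), or −0.51 without replicate 1. With 5 µM I-CBP112 it was −0.35 (adjusted p = 0.0440, limma), a call that held in 9 of 19 alternative settings.

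Summed over HK1 and HK2, hexokinase transcript fell from 165 FPKM with DMSO to 83.2 with 5 µM CBP30. HK1 made up 88.5% of that sum with DMSO and 89.0% with 5 µM CBP30, so the isozyme shares hardly moved while the sum dropped. With 2 µM CBP30 the sum was 96.4, with 2 µM I-CBP112 it was 136 and with 5 µM I-CBP112 it was 122.

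Promoters are shown for HK2 and PFKFB3, which fell and whose promoter holds the E-box CACGTG, the motif bound by MYC and related factors, and for ENO2, which rose and has none. The sequences are from RefSeq (GRCh38.p14) and run from 250 bases before to 50 after an annotated start of the gene. They are 5′ to 3′ on the plus strand and have CACGTG in capitals. They cover chr2:74834920-74835219, chr10:6202682-6202981 and chr12:6914330-6914629. For each gene 1 such window was used, which need not be the outermost start of the gene or the start used in K562.
HK2: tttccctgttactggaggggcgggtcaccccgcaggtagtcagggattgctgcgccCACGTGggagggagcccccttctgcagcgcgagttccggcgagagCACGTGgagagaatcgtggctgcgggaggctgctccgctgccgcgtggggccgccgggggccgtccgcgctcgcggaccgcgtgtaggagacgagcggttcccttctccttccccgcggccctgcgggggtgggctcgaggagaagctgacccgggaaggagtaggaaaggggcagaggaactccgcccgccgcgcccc
PFKFB3: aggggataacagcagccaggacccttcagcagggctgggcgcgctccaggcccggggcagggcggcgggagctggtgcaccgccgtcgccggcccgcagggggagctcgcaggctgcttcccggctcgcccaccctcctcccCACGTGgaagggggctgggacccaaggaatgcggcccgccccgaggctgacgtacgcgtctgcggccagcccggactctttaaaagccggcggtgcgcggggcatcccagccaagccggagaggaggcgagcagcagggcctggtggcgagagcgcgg
ENO2: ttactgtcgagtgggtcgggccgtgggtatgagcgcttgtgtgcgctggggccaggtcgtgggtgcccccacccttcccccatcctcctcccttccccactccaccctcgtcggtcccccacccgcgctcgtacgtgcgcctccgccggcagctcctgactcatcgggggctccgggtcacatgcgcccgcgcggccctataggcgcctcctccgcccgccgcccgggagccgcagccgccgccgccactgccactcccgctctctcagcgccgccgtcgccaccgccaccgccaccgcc
In HK2 the E-boxes began 194 and 149 bases before the start, and in PFKFB3 108 bases before it. Promoters were found for 30 of the 33 genes, and 5 of them (16.7%) held CACGTG, which reads the same on both strands: HK2, ALDOC, GAPDH, PFKFB3 and PDHB. Of these, GAPDH and ALDOC were not called against DMSO and PDHB was called higher. HK1, PFKP, PFKFB4, PDK1 and RPIA fell with 5 µM CBP30 and held no CACGTG in this window, and the genes printed were chosen with these matches known. The motif was in 9.54% of the promoters of tested genes and in 7.26% of all 35116. The core of the hypoxia response motif, ACGTG on either strand, which overlaps the E-box, was in 13 of 30 (43.3%), ENO2 included, beside 25.6% and 21.4%. The motifs AGATAA and TGATAA, on either strand, were in 3 of 30 (10%: HK1, PFKP and PGAM1), beside 9.34% and 16.3%.

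Downstream of hexokinase, the phosphofructokinase isozymes moved in opposite directions. PFKP, the platelet isozyme, was at 24.8 and 24.2 FPKM with DMSO, 16.4 and 17.7 with 2 µM CBP30, 13.4 and 12.5 with 5 µM CBP30, and under I-CBP112 24.0 and 24.2 at 2 µM and 23.7 and 22.5 at 5 µM. All CBP30 samples lay below all DMSO and I-CBP112 samples. It changed by −0.87 (SE 0.06, adjusted p = 4.67e-05, limma) with 5 µM CBP30 and −0.50 (adjusted p = 1.21e-03) with 2 µM, or −0.45 without replicate 1. With 5 µM I-CBP112 it was −0.08, with a 95% interval of −0.22 to 0.05.

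PFKM, the muscle isozyme, was higher with 5 µM CBP30, at 28.0 ± 0.142 FPKM against 21.1 ± 0.212 with DMSO (log2 0.39, SE 0.04, adjusted p = 3.86e-04, limma). It was also called higher with 2 µM CBP30, by 0.19 (0.20 without replicate 1), and with I-CBP112 at 5 µM, by the same amount. The call with I-CBP112 held in 7 of 19 alternative settings. PFKL, the liver isozyme and the most abundant, was not called against DMSO. The PFKP share of phosphofructokinase transcript was 25.05% with DMSO and 15.1% with 5 µM CBP30, and that of PFKM 21.5% and 32.7%. PFKM was above PFKP in all 4 CBP30 samples and below it in both DMSO samples.

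GPI, which converts glucose 6-phosphate to fructose 6-phosphate, fell by 0.24 on the log2 scale with 5 µM CBP30 (adjusted p = 0.0160, limma). The aldolases ALDOA and ALDOC, which split fructose bisphosphate into trioses, were not called against DMSO. ALDOA was at 629 ± 9.63 FPKM with DMSO and 534 ± 5.31 with 5 µM CBP30 (log2 −0.24, 95% interval −0.54 to 0.07). This interval rests on the spread pooled over all 5 groups, and the samples of 2 µM CBP30 were at 757 and 560 FPKM.

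**Figure D2:**
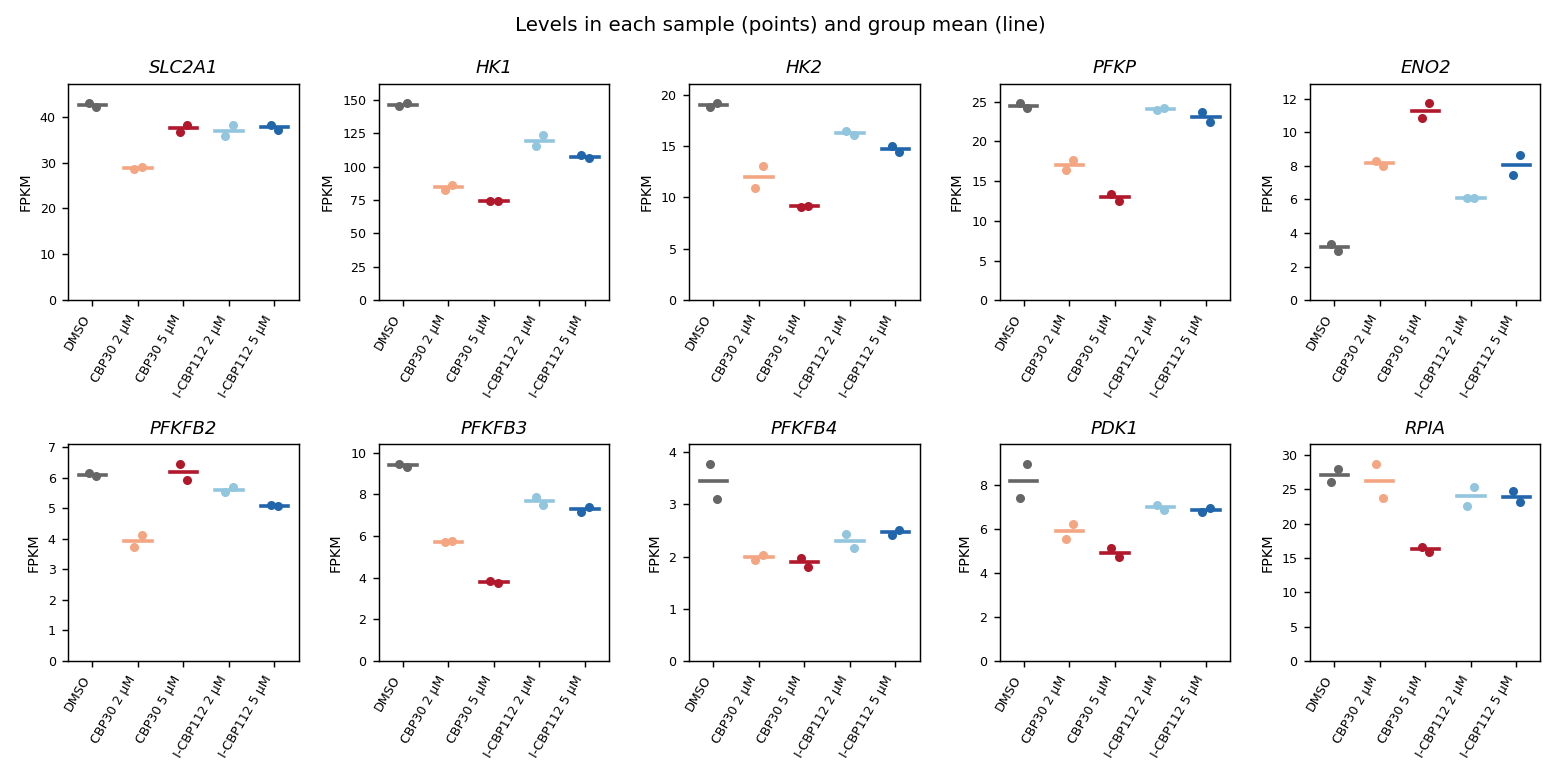
FPKM of the 10 genes called against DMSO with a log2 change of at least 0.5 in size, in each sample (points) and as group means (lines), each panel with its own linear axis from 0. HK1 and HK2 step down from DMSO through I-CBP112 to CBP30, SLC2A1 and PFKFB2 are lowest with 2 µM CBP30, and ENO2 is above its DMSO samples in all treated samples.

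Among the enzymes from triose phosphate isomerase to lactate dehydrogenase, ENO2 stood alone in passing the test against DMSO in the fit of all 5 groups. ENO2, an enolase best known from neurons, lies at chr12:7022909-7032861 (GRCh37, plus strand). It was at 3.37 and 2.94 FPKM with DMSO, 8.31 and 8.01 with 2 µM CBP30, 10.8 and 11.7 with 5 µM CBP30, and under I-CBP112 6.09 and 6.10 at 2 µM and 7.43 and 8.65 at 5 µM. All 8 treated samples lay above both DMSO samples. Its log2 change was 1.56 (SE 0.08, adjusted p = 2.05e-05, limma) with 5 µM CBP30 and 1.14 (adjusted p = 2.19e-04) with 2 µM, or 1.12 without replicate 1. It was 1.12 (SE 0.08, adjusted p = 8.36e-04, limma) with 5 µM I-CBP112 and 0.77 (adjusted p = 9.41e-03) with 2 µM. ENO2 nevertheless stayed a small part of enolase transcript, at 0.295% of the sum with ENO1 under DMSO and 1.01% with 5 µM CBP30.

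The other 7 genes of these steps were not called against DMSO in the fit of all 5 groups. That fit pools the spread of all groups, including 2 µM CBP30, where GAPDH was at 1738 and 1473 FPKM. GAPDH, which yields the first NADH of the pathway, was at 1645 ± 5.71 FPKM with DMSO and 1483 ± 2.45 with 5 µM CBP30. ENO1, the main enolase, was at 1067 ± 3.66 and 1101 ± 1.19, and PGK1, an ATP-making kinase, at 311 ± 0.626 and 326 ± 8.23. LDHA and LDHB, which interconvert pyruvate and lactate, were at 394 ± 3.34 and 766 ± 8.25 FPKM with DMSO and at 366 ± 7.64 and 632 ± 22.4 with 5 µM CBP30. TPI1 and PGAM1, a triose isomerase and a phosphoglycerate mutase, had log2 changes of 0.23 and 0.25 with 5 µM CBP30, short of the threshold. Under quantile normalization TPI1, PGK1, PGAM1 and ENO1 were called higher and LDHB lower there, and with 2 µM CBP30 GAPDH (−0.22) and LDHA (−0.21) were called lower. Several of these genes have processed pseudogenes of nearly the same sequence, so their levels depend on how reads were divided between copies, which was not stated.

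Summed over all 33 genes, transcript was at 6686 and 6682 FPKM with DMSO and 6137 and 6191 with 5 µM CBP30. With 2 µM CBP30 it was 7373 in replicate 1 and 6182 in replicate 2, the widest gap between replicates. GAPDH, ENO1 and LDHB had the highest levels per length of the 33 genes.

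The PFKFB enzymes make and break down fructose 2,6-bisphosphate, and all 3 genes described here were lower with 2 µM CBP30. PFKFB3, the isozyme known for making the activator rather than removing it, lies at chr10:6186897-6296607 (GRCh37, plus strand). It was at 9.46 and 9.33 FPKM with DMSO, 5.69 and 5.74 with 2 µM CBP30, 3.82 and 3.75 with 5 µM CBP30, and under I-CBP112 7.90 and 7.48 at 2 µM and 7.16 and 7.40 at 5 µM. All treated samples lay below DMSO and all CBP30 samples below all I-CBP112 samples. On the log2 scale it changed by −1.12 (SE 0.05, adjusted p = 1.12e-05, limma) with 5 µM CBP30, the largest fall among the 32 genes, and −0.63 (adjusted p = 3.04e-04) with 2 µM, or −0.62 without replicate 1. With 5 µM I-CBP112 it was −0.33 (adjusted p = 0.0130, limma), lost when either sample of DMSO or of 5 µM I-CBP112 was left out.

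PFKFB4 was at 3.77 and 3.11 FPKM with DMSO, 1.94 and 2.03 with 2 µM CBP30, 1.97 and 1.81 with 5 µM CBP30, and under I-CBP112 2.44 and 2.16 at 2 µM and 2.42 and 2.52 at 5 µM. The CBP30 groups lay below the rest and overlapped each other, as did the I-CBP112 groups. It changed by −0.62 (SE 0.09, adjusted p = 1.41e-03, limma) with 5 µM CBP30 and −0.57 (adjusted p = 4.16e-03) with 2 µM, or −0.55 without replicate 1.

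PFKFB2, the heart isozyme, did not follow the same order. It was at 6.14 and 6.04 FPKM with DMSO, 3.71 and 4.13 with 2 µM CBP30, 6.44 and 5.93 with 5 µM CBP30, and under I-CBP112 5.52 and 5.69 at 2 µM and 5.11 and 5.06 at 5 µM. Both samples of 2 µM CBP30 lay below all others, while those of 5 µM CBP30 lay on either side of the DMSO samples. Its log2 change was −0.53 (SE 0.06, adjusted p = 1.52e-03, limma) with 2 µM CBP30, or −0.47 without replicate 1, and 0.02 with 5 µM (95% interval −0.13 to 0.17). As a result, PFKFB2 held 32.2% of the transcript of the 3 genes with DMSO and 52.1% with 5 µM CBP30, and PFKFB3 held 49.7% and 31.9%.

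Pyruvate enters the citric acid cycle through the pyruvate dehydrogenase complex, which PDK kinases switch off. PDK1 was at 7.40 and 8.94 FPKM with DMSO, 5.52 and 6.23 with 2 µM CBP30, 5.11 and 4.72 with 5 µM CBP30, and under I-CBP112 7.08 and 6.88 at 2 µM and 6.77 and 6.94 at 5 µM. All treated samples lay below both DMSO samples. On the log2 scale it changed by −0.63 (SE 0.09, adjusted p = 1.47e-03, limma) with 5 µM CBP30. It was −0.41 (adjusted p = 0.0158, limma) with 2 µM and −0.34 without replicate 1, and the call was lost, at −0.16, when the trend with transcript length was removed.

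PDHA1, the catalytic alpha subunit of the complex, fell by 0.44 on the log2 scale with 5 µM CBP30 (adjusted p = 1.38e-03, limma) and by 0.24 with 2 µM (adjusted p = 0.0301). The call at 2 µM held in 10 of 19 alternative settings, and the change was −0.29 without replicate 1. PDHB, the beta subunit, rose by 0.24 with 5 µM CBP30 (adjusted p = 0.0264, limma), a call that held in 15 of 19 alternative settings. The alpha and beta subunits thus moved in opposite directions, from 21.6 to 15.6 FPKM for PDHA1 and from 45.5 to 54.0 for PDHB. Outside the 33 genes, PDHX, DLAT and DLD of the complex were called lower with 5 µM CBP30, as PDHA1 was.

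In the pentose phosphate pathway, calls against DMSO were limited to the non-oxidative enzymes RPIA and TALDO1 at 5 µM CBP30. RPIA, which makes ribose 5-phosphate, was at 26.1 and 27.9 FPKM with DMSO, 28.7 and 23.7 with 2 µM CBP30, 16.6 and 15.9 with 5 µM CBP30, and under I-CBP112 22.6 and 25.3 at 2 µM and 24.7 and 23.2 at 5 µM. Both samples of 5 µM CBP30 lay below all others, and the other 8 samples ranged from 22.6 to 28.7 FPKM. It changed by −0.70 (SE 0.10, adjusted p = 1.18e-03, limma) with 5 µM CBP30 and −0.05 (95% interval −0.28 to 0.18) with 2 µM, or −0.18 (adjusted p = 0.127, limma) without replicate 1. TALDO1, a transaldolase, fell by 0.48 with 5 µM CBP30 (adjusted p = 8.23e-03, limma), from 238 ± 2.94 to 171 ± 2.31 FPKM.

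PGD, PGLS, TKT and RPE were not called against DMSO. PGD, an NADPH-making dehydrogenase of the oxidative branch, stayed between 266 and 297 FPKM in all samples. PGLS, a lactonase of the same branch, was at 53.2 and 52.4 FPKM with DMSO. It was at 80.4 in replicate 1 and 57.2 in replicate 2 of 2 µM CBP30. With 5 µM CBP30 it was at 42.0 and 38.5, below all other samples, and was called lower there than with 2 µM. TKT, a transketolase, was at 158 ± 0.029 FPKM with DMSO and 141 ± 0.152 with 5 µM CBP30, and RPE, an epimerase, at 24.7 ± 0.775 and 24.6 ± 0.503.

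**Figure D3:**
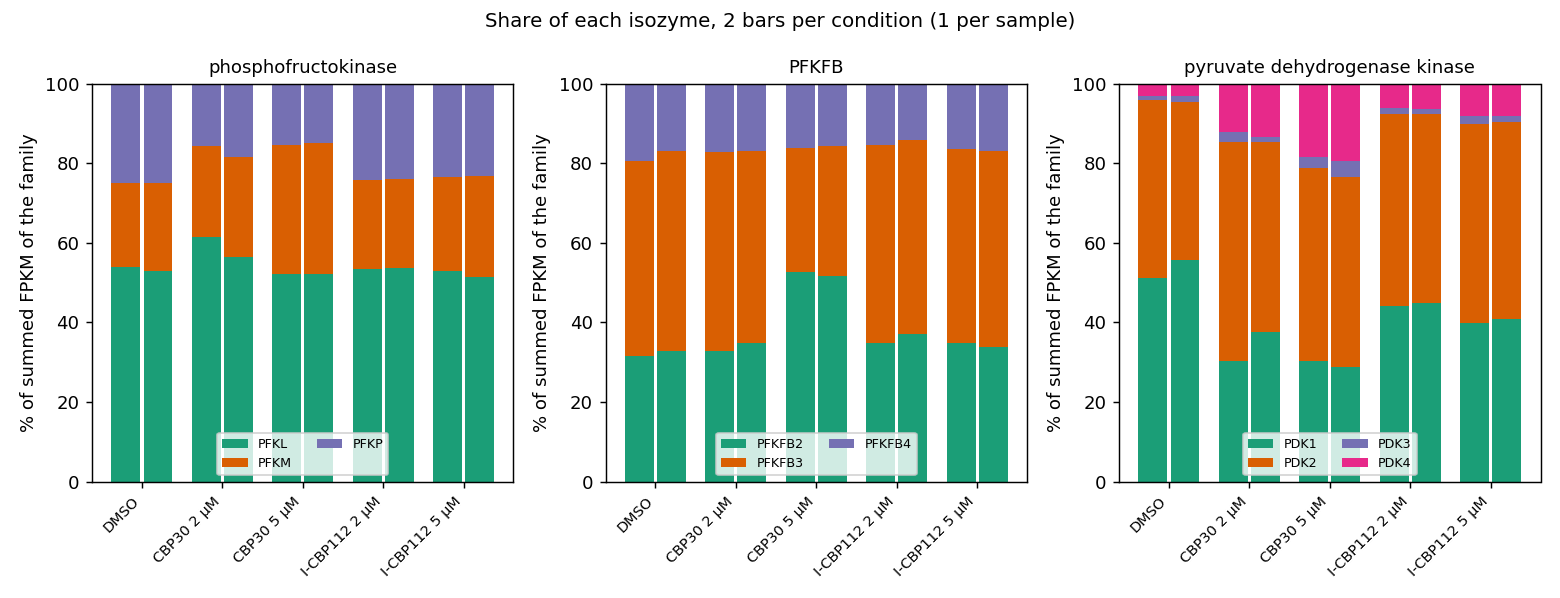
Share of each isozyme in the summed FPKM of its family (% on the vertical axis, 1 bar per sample and 2 per condition) for phosphofructokinase, PFKFB and the pyruvate dehydrogenase kinases. PFKP shrinks and PFKM grows with 5 µM CBP30, PFKFB2 exceeds PFKFB3 in that group alone among these 5, and the PDK4 share rises from 3.14% with DMSO to 18.96% with 5 µM CBP30.

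The change from 2 to 5 µM was compared within each compound. Raising CBP30 from 2 to 5 µM gave 10 lower and 5 higher genes, beside 21.3% lower and 17.6% higher of all tested genes. Without replicate 1 of 2 µM CBP30, 9 were lower and 6 higher, LDHB and PDHA1 being lost. Over 19 alternative settings the call of LDHB held in 5, that of PDHA1 in 9 and that of SLC2A3 in 10, and LDHB went from −0.34 to 0.01 under quantile normalization. Quantile normalization gave 9 lower and 13 higher, and median centring 10 and 4, so the balance of the 2 directions depends on the setting used. PFKFB3 (−0.49), PFKP (−0.37) and HK2 (−0.35) fell further at 5 µM. RPIA, which was not called against DMSO at 2 µM, changed by −0.65. SLC2A1 and PFKFB2 went the other way, by 0.37 (adjusted p = 3.71e-03, limma) and 0.55 (adjusted p = 2.41e-03), which left PFKFB2 at 102% and SLC2A1 at 88.0% of its DMSO mean.

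For I-CBP112 the same step gave 0 lower and 0 higher genes by limma, beside 0.00782% and 0.0547% of all tested genes. At an unadjusted p under 0.05, 1 was lower (HK1) and 1 higher (ENO2). No other tool was run.

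A direct test of the difference between these dose steps called 2 genes lower, PFKFB3 and RPIA, and 2 higher, SLC2A1 and PFKFB2, beside 3.32% lower and 1.63% higher of all tested genes. Quantile normalization gave 3 lower and 5 higher, and median centring 2 lower and 1 higher.

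CBP30 and I-CBP112 were compared as 1 pair at each of 2 matched concentrations, with p adjusted over all tested genes. At 5 µM, 8 genes were lower and 3 higher with CBP30 than with I-CBP112, beside 17.9% lower and 13.6% higher of all tested genes. Quantile normalization gave 9 lower and 10 higher. PFKP and PFKFB3 differed most, each by −0.79 on the log2 scale (adjusted p = 2.14e-04 and 1.28e-04, limma). HK2 differed by −0.63, HK1 and RPIA by −0.53, PDK1 by −0.41, TALDO1 by −0.36 and PDHA1 by −0.27. ENO2 (0.44), PFKFB2 (0.24) and PFKM (0.21) were higher with CBP30. The calls of PFKFB2 and TALDO1 held in 8 and 9 of 19 alternative settings. SLC2A1 differed by −0.01 (95% interval −0.13 to 0.11) and LDHA by −0.01 (−0.15 to 0.12).

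At 2 µM, 7 genes were lower and 1 higher with CBP30 than with I-CBP112, beside 8.45% lower and 7.13% higher of all tested genes. HK1 (−0.50), PFKP (−0.48), PFKFB2 (−0.43), HK2 (−0.42), PFKFB3 (−0.37), SLC2A1 (−0.35) and SLC2A3 (−0.27) were lower, and ENO2 (0.37) was higher, a call that held in 9 of 19 alternative settings. Without replicate 1 of 2 µM CBP30, 7 were lower and 0 higher, ENO2 being lost at 0.34. Without replicate 2, 9 were lower and 15 higher. The intervals of the genes that were not called ran as far as −0.71 and 0.48 at 5 µM and −0.43 and 0.74 at 2 µM, so a missing call does not show that the compounds acted alike.

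**Figure D4:**
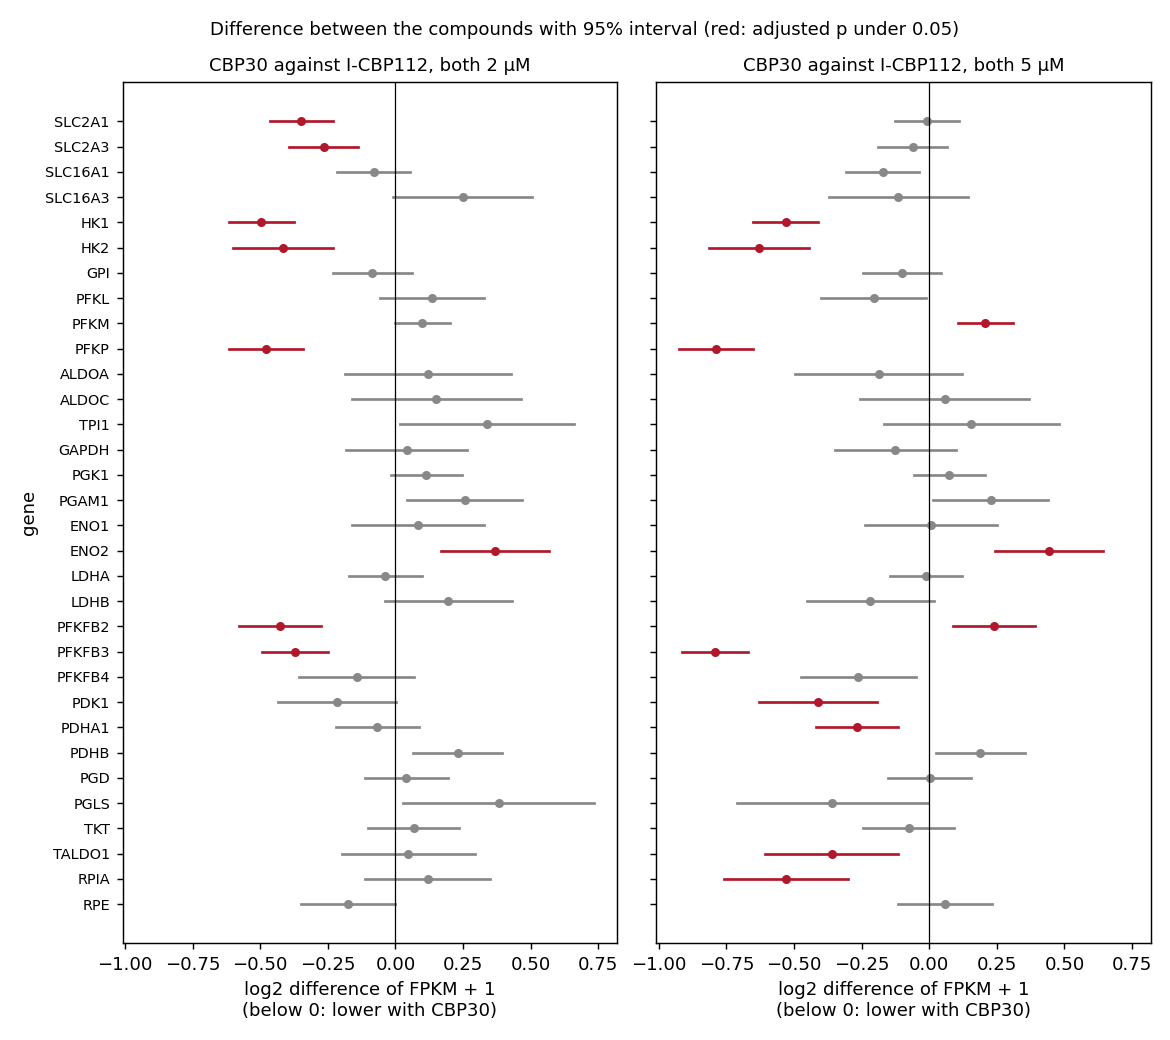
Log2 difference of FPKM + 1 between CBP30 and I-CBP112 (horizontal axis, below 0 lower with CBP30) with 95% intervals for the 32 tested genes (rows) at 2 µM (left) and 5 µM (right), red where the adjusted p was under 0.05. PFKP and PFKFB3 lie farthest to the left at 5 µM, at −0.79, and SLC2A1 is below 0 at 2 µM and at 0 at 5 µM.

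Other genes of the same pathways were taken as a list of 56, of which 33 were tested. At 5 µM CBP30, 10 were lower and 12 higher, and with 2 µM 7 and 9 (8 and 9 without replicate 1). With 5 µM I-CBP112, 3 were lower and 3 higher, and with 2 µM 1 and 1. For this list and the regulators and hypoxia genes further on, the shares of all tested genes lower and higher were 25.4% and 21.2% for CBP30 at 5 µM, 16.3% and 15.9% at 2 µM, and for I-CBP112 3.28% and 3.84% at 5 µM, and 0.735% and 0.868% at 2 µM. The isozymes of pyruvate kinase, the final step of glycolysis, moved in opposite directions. PKM, listed under its older symbol PKM2 and here standing for all transcripts of the gene, was at 176 and 174 FPKM with DMSO, 391 and 308 with 2 µM CBP30, 561.6 and 565.3 with 5 µM CBP30, and under I-CBP112 227 and 231 at 2 µM and 272 and 268 at 5 µM. All treated samples lay above DMSO, and the log2 change with 5 µM CBP30 was 1.68 (adjusted p = 3.3e-05, limma).

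PKLR, the pyruvate kinase of liver and red cells, went the other way, from 12.5 and 12.4 FPKM with DMSO to 2.26 and 2.31 with 2 µM CBP30, 1.09 and 1.02 with 5 µM CBP30, and under I-CBP112 5.62 and 5.41 at 2 µM and 4.09 and 3.77 at 5 µM. The groups did not overlap, and its log2 change with 5 µM CBP30 was −2.71 (adjusted p = 4.1e-07, limma). PKLR made up 6.62% of pyruvate kinase transcript with DMSO and 0.187% with 5 µM CBP30.

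Genes of mitochondrial pyruvate handling moved both ways with 5 µM CBP30. PDHX, DLAT and DLD of the pyruvate dehydrogenase complex were called lower, and PC, PDP1 and PDP2 higher. MPC2 and PDK4 rose most. MPC1, the partner of MPC2 in the carrier and listed as BRP44L, was not among the called genes. MPC2, a subunit of the mitochondrial pyruvate carrier listed as BRP44, went from 6.86 and 6.82 FPKM with DMSO to 43.97 and 45.58 with 5 µM CBP30 (log2 2.55, adjusted p = 6.1e-06, limma). PDK4, a kinase of pyruvate dehydrogenase typical of fasting, went from 0.451 and 0.507 to 3.13 and 3.16 FPKM (log2 1.49, adjusted p = 7.3e-06, limma), while PDK1 fell. The transporter SLC2A12 (1.65) and the microsomal dehydrogenase H6PD (0.69) were also higher with 5 µM CBP30. PCK2, the mitochondrial PEP carboxykinase (−0.90), LDHD, a D-lactate dehydrogenase (−0.80), the muscle enolase ENO3 (−0.77) and the mitochondrial phosphatase PGAM5 (−0.65) were lower.

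**Figure D5:**
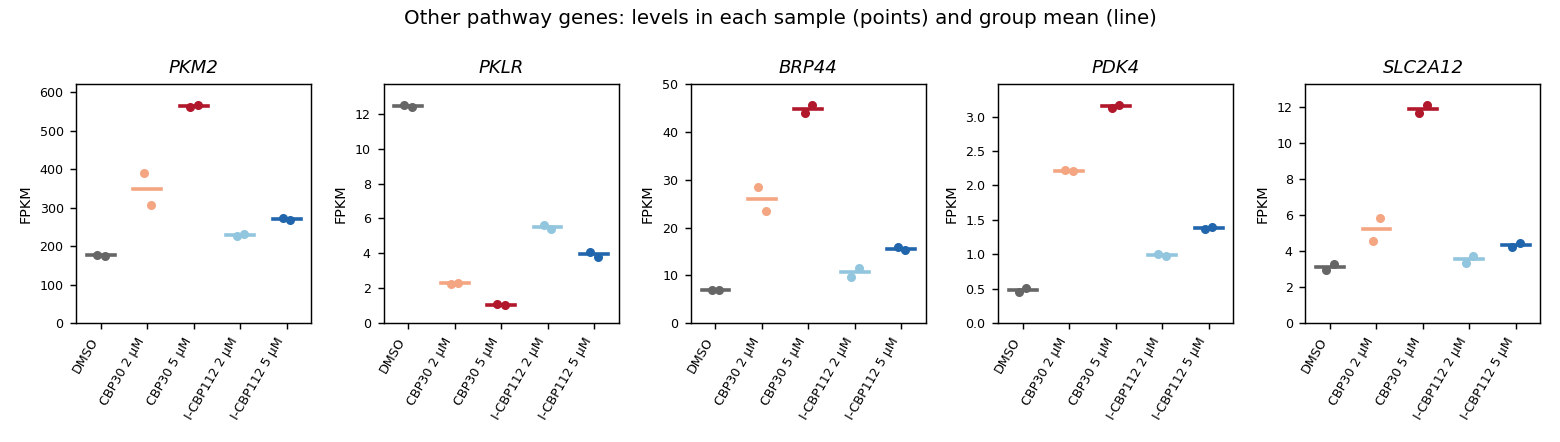
FPKM in each sample (points) and as group means (lines) of PKM (listed as PKM2), PKLR, MPC2 (listed as BRP44), PDK4 and SLC2A12 in the 5 conditions, each panel with its own linear axis from 0. PKLR falls from above 12 FPKM with DMSO to about 1 with 5 µM CBP30, and the other 4 genes are highest in that group.

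Of 22 regulators of glycolysis, 20 were tested. At 5 µM CBP30, 8 were lower and 6 higher, with 2 µM 6 and 2 (8 and 3 without replicate 1), with 5 µM I-CBP112 2 and 2, and with 2 µM I-CBP112 2 and 0 by limma (6 lower and 3 higher at an unadjusted p under 0.05). MYC, a transcription factor that activates many glycolytic genes, was at 338 and 320 FPKM with DMSO, 148 and 146 with 2 µM CBP30, 81.7 and 80.9 with 5 µM CBP30, and under I-CBP112 241 and 231 at 2 µM and 210 and 201 at 5 µM. The groups did not overlap, and the log2 change with 5 µM CBP30 was −2.00 (adjusted p = 1.0e-06, limma). KLF1, an erythroid factor, changed by −2.81, MXI1, an antagonist of MYC, by −0.72, and MLXIPL, a glucose-sensing factor, by −0.58. Higher were HIF1A (0.62) and EPAS1 (0.55), the oxygen-regulated HIF subunits, and TIGAR, a fructose bisphosphatase listed as C12orf5 (0.67). EGLN3, a HIF prolyl hydroxylase, was lower with 2 µM CBP30 (−0.57) and at −0.11 with 5 µM.

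Of 19 hypoxia-responsive genes outside glycolysis, 16 were tested, and they did not move one way. At 5 µM CBP30, 5 were lower and 5 higher, with 2 µM 3 and 6 (5 and 6 without replicate 1), with 5 µM I-CBP112 2 and 2, and with 2 µM I-CBP112 0 and 0 by limma (0 lower and 2 higher at an unadjusted p under 0.05). The growth factor VEGFA (−1.51), the secreted STC2 (−1.48) and the MTOR inhibitor DDIT4 (−1.10) were lower with 5 µM CBP30. BNIP3L, a mitophagy receptor (1.29), NDRG1 (1.04), the prolyl hydroxylase P4HA2 (0.66) and INSIG2 (0.63) were higher.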

How the data were processed

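RNA from 10 samples of K562 cells (5 conditions, 2 samples each, called biological replicates in the study's methods) had been made into stranded poly(A) libraries and sequenced as single reads. The authors ran the Nextpresso pipeline against hg19 and deposited 1 FPKM value per gene and sample. The submitters' processing notes name FastQC, TopHat2 2.0.10, Bowtie 1.0.0, SAMtools 0.1.19, Cufflinks 2.2.1 and Cuffnorm, and the gene annotation is not given in the sources used here. FPKM hold no read counts, so no counting error was derived and the precision rests on 2 samples per condition. Exact permutation of 2 against 2 samples cannot reach 0.05.

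Here log2(FPKM + 1) of the 12788 genes averaging 0.5 FPKM or more was fitted in limma 3.58.1 (R 4.3.3) with 1 model of 5 groups and eBayes with a variance trend, giving 5 residual and 2.15 prior degrees of freedom. A Benjamini-Hochberg adjusted p under 0.05 was the threshold for a call. Values in every sample are given for genes called against DMSO with a log2 change of at least 0.5 in size, other genes by ranges and counts, and at most 10 per additional list. The genes and lists were chosen with earlier results of these data known. Alternatives were another pseudocount (0.1), filters, scalings, variance model, block, length correction, pairwise fits and leaving out each sample. Transcript lengths came from GENCODE for GRCh37 (94.9% of tested genes). Tables and figures were made with pandas 2.3.3 and matplotlib 3.10.9 in Python 3.11.15.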

Additional observations from a re-analysis of the deposited data

Results flagged for a closer look

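For 4 genes the change from 2 to 5 µM differed between CBP30 and I-CBP112 by a test of the difference itself (limma, adjusted over all tested genes). The change with CBP30 less that with I-CBP112 was 0.34 on the log2 scale for SLC2A1 (adjusted p = 0.0443), 0.66 for PFKFB2 (adjusted p = 0.0193), −0.42 for PFKFB3 (adjusted p = 0.0315) and −0.65 for RPIA (adjusted p = 0.0481). Without replicate 1 of 2 µM CBP30 the differences were 0.33 for SLC2A1, 0.60 for PFKFB2, −0.42 for PFKFB3 and −0.51 for RPIA. In a fit of the treated groups alone, all 4 calls were lost. SLC2A1 kept its call in 7 of 19 alternative settings, PFKFB2 in 10, PFKFB3 in 8 and RPIA in 6, and each kept its direction in all 19.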

How the results depend on the processing

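With 2 samples per condition, a left-out sample leaves an arm of 1, which is assumed to vary like the other groups. No value against DMSO of the 10 genes with values in every sample changed sign with a call in the main fit or its repeat. This held under the 9 alternative settings and when a sample was left out. Counts did change balance. Under quantile normalization, 10 lower and 5 higher between the CBP30 concentrations became 9 and 13. Between the compounds at 5 µM, 8 lower and 3 higher became 9 and 10. The called fall of LDHB between the CBP30 concentrations (−0.34) became 0.01 under quantile normalization. Of the 40 single-gene values against DMSO for these 10 genes, 332 repeats under other settings kept their side of the threshold, 7 gained a call and 17 lost it, and when a sample was left out 357, 14 and 29 did. The cause of the changes below was not tested, except that pairwise fits use fewer samples. Counts are of genes lower or higher.

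Fitting only the groups compared gave 19 lower and 5 higher with 5 µM CBP30 against DMSO, 1 and 1 with 2 µM CBP30, 5 and 1 for I-CBP112 at 5 µM, 0 and 0 with 2 µM I-CBP112, 0 and 0 between the CBP30 concentrations, 15 and 6 between the compounds at 5 µM, 0 and 0 at 2 µM, and 0 and 0 for the dose steps. Quantile normalization gave 8 higher with 5 µM CBP30, 16 lower and 5 higher with 2 µM CBP30, 5 lower with 5 µM I-CBP112, 13 higher between the CBP30 concentrations, 10 and 2 higher between the compounds at 5 and 2 µM, and 5 higher for the dose steps. Removing the trend with transcript length gave 5 higher with 5 µM CBP30, 3 lower with 2 µM I-CBP112, 8 higher between the CBP30 concentrations and 4 lower for the dose steps. Without a variance trend, 1 was higher with 5 µM I-CBP112, 0 lower with 2 µM I-CBP112, and 1 lower and 1 higher for the dose steps. A filter at 5 FPKM gave 0 lower with 2 µM I-CBP112, median centring 1 higher for the dose steps, and a pseudocount of 0.1 gave 1 higher with 5 µM I-CBP112. Without a filter, 0 were higher between the compounds at 2 µM and 0 lower for the dose steps.

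Same-numbered samples did not deviate together across genes (correlations −0.0681 to 0.0939), so no shift shared by number was seen. This cannot show whether samples of 1 number were prepared together. With the replicate number as a block, 14 genes were lower and 3 higher with 5 µM CBP30, 9 and 3 with 2 µM CBP30, 2 and 1 for I-CBP112 at 5 µM, 0 and 1 with 2 µM I-CBP112, 7 and 0 between the compounds at 2 µM, and 0 and 1 for the dose steps.

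Leaving out 1 sample gave 8 to 18 lower and 2 to 5 higher with 5 µM CBP30, 7 to 12 lower and 1 to 11 higher with 2 µM CBP30, 0 to 6 lower and 1 to 2 higher with 5 µM I-CBP112, and 0 to 5 lower and 0 to 1 higher with 2 µM I-CBP112. Between the CBP30 concentrations it gave 3 to 16 lower and 2 to 6 higher, between the compounds 4 to 14 lower and 0 to 6 higher at 5 µM and 3 to 9 lower and 0 to 15 higher at 2 µM, and for the dose steps 0 to 13 lower and 0 to 3 higher. Between the I-CBP112 concentrations 0 were called throughout. Leaving out either sample of 2 µM CBP30 raised counts in comparisons that do not use that group, such as 14 lower between the compounds at 5 µM and 6 lower with 5 µM I-CBP112. Without replicate 2 of 2 µM CBP30, 11 were higher with 2 µM CBP30, 15 higher between the compounds at 2 µM, and 13 lower for the dose steps. Without replicate 1 of it, 6 were lower for the dose steps. Leaving out any sample of the other 4 conditions left 0 lower and 0 higher for the dose steps. FPKM hold no counts, so what depth limits could not be measured.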
